A study of Mus musculus with 18 samples.

Results

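The CCN matricellular family was followed as 5 genes, Cyr61 (CCN1), Ctgf (CCN2), Nov (CCN3), Wisp1 (CCN4) and Wisp2 (CCN5), chosen by their symbols among the 23238 gene symbols measured. Each symbol had a single row in every count table. The sixth mouse gene of the family, Wisp3 (CCN6), had 6 reads in WT IntSC replicate 4 (1.01 CPM) and none in the other 17 libraries, and is not followed further.

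RNA was measured in 18 libraries of cells sorted from the small intestine of adult C57BL/6J mice. PDGFRb+ intestinal stromal cells (IntSCs) gave 6 WT and 5 LATS1/2 KO libraries. Lymphatic endothelial cells (LECs) gave 4 WT and 3 LATS1/2 KO libraries. Intestinal LECs include those lining the lacteals (lymph vessels of the villi), which the labels do not set apart. Both genotypes carried PDGFRb+-CreERT2 and Tomato+ per the labels, and the KO mice carried Lats1f/f and Lats2 f/f in addition. The Cre enzyme is expressed from the Pdgfrb promoter and is activated by tamoxifen, so the deletion was directed at the stromal cells, and the LECs of the KO group are cells from mice with a stromal deletion. The study's figure legends count as many mice per group as there are libraries, taken from several separate experiments. Which library belongs to which experiment was not given in the sources used here, so the experiment could not enter the tests as a batch.

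CCN proteins are secreted into the extracellular matrix, where they bind integrins and other surface receptors and modulate growth factors, and they share insulin-like growth factor binding protein, von Willebrand factor C and thrombospondin modules. All except CCN5 end in a cystine knot module. Cyr61 and Ctgf are classical targets of YAP and TAZ, the co-activators that LATS1 and LATS2 restrain by phosphorylation and that reach DNA through the TEAD factors. Wisp1 and Wisp2 were named as WNT1-inducible genes, and Nov is known as a growth-regulating member of the family.

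Positions are those of GENCODE vM21 on GRCm38, the assembly also called mm10. Cyr61 (Ccn1 there) lies at chr3:145646976-145649981 on the minus strand, Ctgf (Ccn2) at chr10:24595442-24598683 on the plus strand and Nov (Ccn3) at chr15:54745702-54754039 on the plus strand. Wisp1 (Ccn4) lies at chr15:66891320-66923201 and Wisp2 (Ccn5) at chr2:163820861-163833146, both on the plus strand. The principal transcript of each had 5 exons. Its coding part held 379 codons in Cyr61, 348 in Ctgf, 354 in Nov, 367 in Wisp1 and 251 in Wisp2, the shortest of the family. The antisense gene Gm15270 overlaps Ctgf and had no row in the count tables, and no annotated gene overlaps the other 4.

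The promoters of Ctgf, Nov, Wisp1 and Wisp2 were not available in the sources used here and were not searched. The promoter of Cyr61, a textbook TEAD target whose level is described in every group below, is shown. It covers the 250 bases before the start of transcription in RefSeq (GRCm38.p6, chr3:145649986-145650235, minus strand), with capitals marking a TEAD core (GGAATG, read here on the opposite strand) and a TATA box (TATAAA).

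Cyr61: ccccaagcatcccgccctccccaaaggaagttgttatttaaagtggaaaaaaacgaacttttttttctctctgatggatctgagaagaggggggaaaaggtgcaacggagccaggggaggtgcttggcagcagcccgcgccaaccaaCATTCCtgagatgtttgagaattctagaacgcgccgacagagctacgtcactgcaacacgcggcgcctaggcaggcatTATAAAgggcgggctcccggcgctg

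Both strands were searched, and the motifs do not overlap each other. The TEAD core began 103 bases before the start of transcription and the TATA box 25 bases before it. Of 32851 promoter windows of the same length, 12.6% held GGAATG and 12.4% held TATAAA. The AP-1 motif TGANTCA, present in 6.75% of the windows, was not found in these letters. A match is a description of the letters only.

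Total counts ran from 5361250 to 10549233 per library, and 3 reads, the limit that a count of 0 allows, made up at most 5.60e-05% of a library. The ribosomal RNA precursor Rn45s took from 7.02% to 24.4% of the reads. The sorted cells carried the markers of their labels: 9 stromal genes summed to 8004 to 17333 CPM in IntSCs and 10 LEC genes summed to 8999 to 14984 CPM in LECs. Stromal genes also summed to 2236 CPM in WT LEC replicate 1, against 320.2 to 684 CPM in the other 6 LEC libraries. The targeted genes did not separate the genotypes. Lats1 was 17.5 ± 10.3 CPM in WT IntSCs (SD, n = 6) and 16.0 ± 3.28 CPM in KO IntSCs (SD, n = 5), and Lats2 was 72.8 ± 23.7 and 114 ± 20.3 CPM (edgeR quasi-likelihood adjusted p = 0.987 and 0.252). The libraries read the 3′ end of transcripts, which need not lie in the deleted part, so this does not check the labels, and "KO" below means the libraries labelled so. Pdgfrb, which drives the Cre, was 484 ± 163 CPM (SD, n = 6) and 878 ± 187 CPM (SD, n = 5) in WT and KO IntSCs, against 28.2 ± 29.5 CPM (SD, n = 4) and 10.6 ± 10.2 CPM (SD, n = 3) in WT and KO LECs. In sorted bulk cells, fewer cells of a type and less RNA per cell cannot be told apart.

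**Figure D1:**
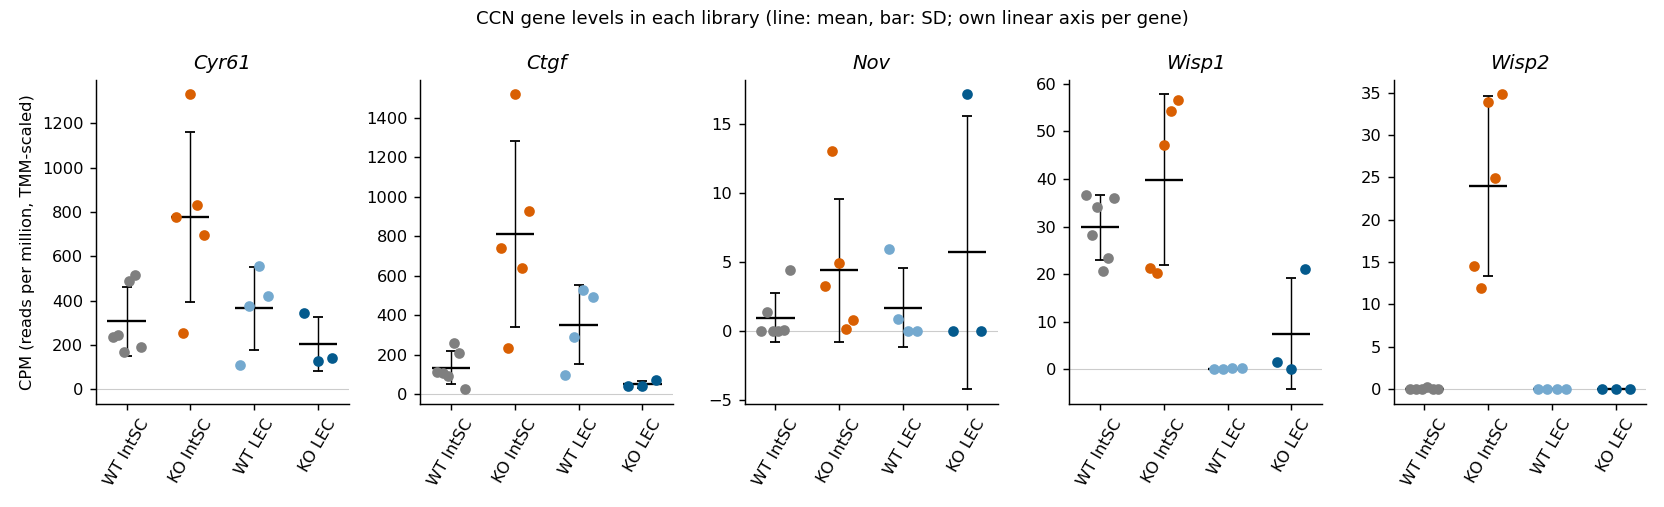
CPM of each CCN gene (vertical axis, linear, its own scale per gene) in every library of the 4 groups, with a line at the group mean and a bar of 1 SD on each side. Wisp2 is above 11 CPM in the 5 KO IntSC libraries and at or near 0 in the others. The group mean of Ctgf is highest in KO IntSCs and lowest in KO LECs. Its libraries overlap between WT and KO IntSCs but not between WT and KO LECs, as for 6.45% of genes tested with every KO LEC library lower.

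To ask which CCN genes differed in stromal cells after LATS1/2 deletion, KO and WT IntSCs were compared across all genes with edgeR. Wisp2 was the single CCN gene that passed the threshold of an adjusted p under 0.05, and it was higher in KO. All 5 genes were tested, and 0.853% of the 12421 genes tested were called higher in KO (106 genes, with 77 called lower). Ctgf and Cyr61 had positive estimates that did not pass, Nov had an estimate with a wide error, and the estimate for Wisp1 was small.

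Wisp2, the member without the cystine knot, was close to absent from WT IntSCs. The WT replicates 1 to 6 held 0, 0, 0, 1, 0 and 0 reads, and the 1 read amounts to 0.168 CPM. The KO replicates 1 to 5 held 111, 87, 282, 167 and 262 reads, which are 14.5, 11.9, 33.9, 24.9 and 34.8 CPM. Every KO library was thus above every WT library, an arrangement found for 1.63% of the genes tested (203 genes). The read counts of 909 in KO and 1 in WT gave a ratio of 924 after scaling to library size, with an exact binomial 95% interval of 165 to 36525 that covers counting error only. The log2 fold change fitted by edgeR, which depends on the treatment of zeros, was 9.07 ± 0.91 (SE) with an adjusted p of 9.45e-06. The exact permutation test gave the smallest p it can give for 6 against 5 libraries (two-sided p = 0.00433, adjusted over all genes 0.215). With this exact test 0 of 18119 genes passed after adjustment, and 1644 had an unadjusted p under 0.05.

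Other cell markers were read beside Wisp2. Of 5 Paneth cell genes, Pla2g2a had no read in either IntSC group and Mmp7 none in WT IntSCs, and their sum was 0.152 to 6.32 CPM in WT and 24.9 to 57.0 CPM in KO IntSCs, also without overlap. In KO LECs the same sum was 11.8 to 62.0 CPM and Wisp2 had no read. The 10 LEC genes summed to 238 to 429 CPM in WT and 435 to 521 CPM in KO IntSCs, the 6 smooth muscle genes to 1037 to 1802 and 1252 to 2336 CPM, and the 9 stromal genes to 12086 to 17333 and 8004 to 13150 CPM. The part of smooth muscle cells in the Wisp2 difference was not tested.

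Ctgf, a matrix protein of fibroblasts and wound repair, was spread widely in both IntSC groups. The WT replicates 1 to 6 stood at 113, 106, 94.8, 261, 210 and 25.9 CPM. The KO replicates 1 to 5 stood at 739, 233, 1519, 639 and 929 CPM. Replicates 1, 3, 4 and 5 of KO lay above all WT libraries, while KO replicate 2 lay below WT replicate 4, so the groups overlapped in that library. The means were 135 ± 85.3 CPM (SD, n = 6) and 812 ± 470.0 CPM (SD, n = 5). The log2 fold change of 2.59 ± 0.57 (SE) fell just short of the edgeR threshold (adjusted p = 0.0528), and the exact permutation test gave p = 0.00866 (adjusted over all genes 0.270). The call depended on single libraries. Ctgf passed without WT replicate 4 (adjusted p = 0.0324), without WT replicate 6 (0.00926) or without KO replicate 2 (0.0228), and with DESeq2 in place of edgeR (9.51e-04). These were 3 of the 11 fits that left out 1 library, and the edgeR adjusted p reached 0.123 in the others. With RLE factors, other count filters, Rn45s removed or all 4 groups in 1 fit Ctgf did not pass (edgeR adjusted p from 0.0534 to 0.116). With the replicate block it passed (0.00570).

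Cyr61, an angiogenic immediate early member, showed the same order of groups with a smaller difference. The WT replicates 1 to 6 stood at 234, 244, 166, 489, 517 and 191 CPM. The KO replicates 1 to 5 stood at 776, 253, 1330, 831 and 694 CPM. Again replicates 1, 3, 4 and 5 of KO were above all WT libraries and KO replicate 2 was among them. The means were 307 ± 155 CPM (SD, n = 6) and 777 ± 384 CPM (SD, n = 5), and the log2 fold change of 1.34 ± 0.38 (SE) did not pass (edgeR adjusted p = 0.118). Without KO replicate 2 it was 1.57 and passed (edgeR adjusted p = 0.0123). This was 1 of 11 fits that left out 1 library, and the edgeR adjusted p reached 0.271 in the others.

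Wisp1, a stromal member linked to WNT signalling, was expressed in both IntSC groups. The WT replicates 1 to 6 stood at 36.6, 28.2, 34.1, 20.7, 23.4 and 36.0 CPM. The KO replicates 1 to 5 stood at 21.2, 20.1, 47.2, 54.3 and 56.6 CPM. Replicates 3, 4 and 5 of KO exceeded all WT libraries, while KO replicate 1 lay near and KO replicate 2 below the lowest WT library. The log2 estimate of 0.42 ± 0.33 (SE) did not pass (edgeR adjusted p = 0.809).

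Nov was scarce and irregular. In WT IntSCs replicates 2, 5 and 6 held 8, 1 and 21 reads and the other 3 libraries held none, with a highest level of 4.43 CPM. In KO IntSCs replicates 1 to 5 held 25, 95, 41, 1 and 6 reads, up to 13.0 CPM in replicate 2. The groups overlapped, and the log2 fold change of 2.16 ± 1.51 (SE) did not pass (edgeR adjusted p = 0.754).

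KO IntSC replicate 2 had the lowest Cyr61, Ctgf, Wisp1 and Wisp2 of the KO IntSC libraries and the highest Nov. Its stromal marker sum, 8004 CPM, was also the lowest of that group. Without it the edgeR comparison called 3 of the 4 CCN genes then tested, Wisp2, Ctgf and Cyr61, and 101 genes in all.

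**Figure D2:**
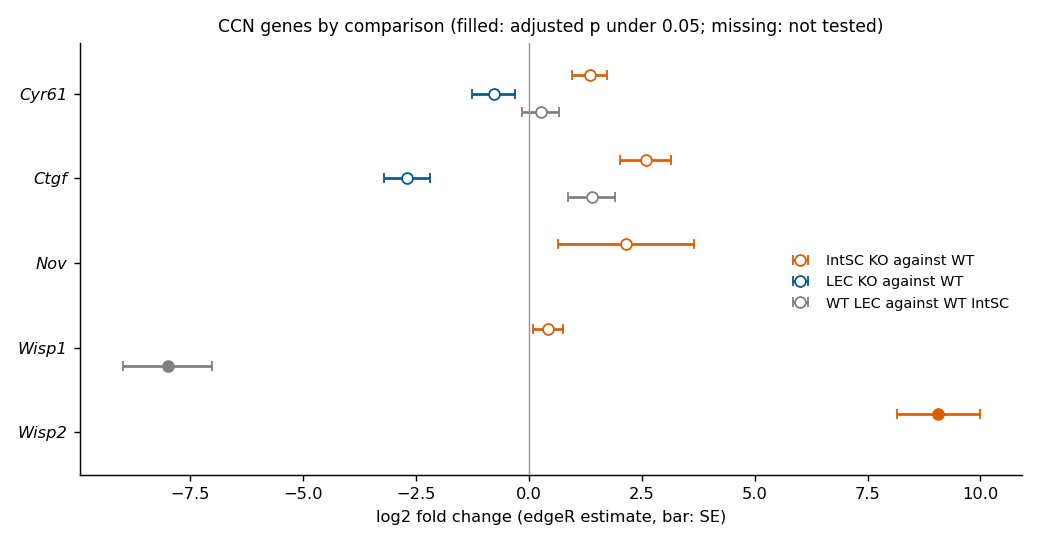
edgeR log2 fold changes (horizontal axis, bar of 1 SE) of the CCN genes in 3 comparisons, filled where the adjusted p is under 0.05 and left out where the gene was too low to be tested. Wisp2 in IntSCs (9.07) and Wisp1 between the WT cell types (-8.00) are filled, and Ctgf has estimates of opposite sign in IntSCs (2.59) and LECs (-2.69).

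The same comparison in LECs asks how the CCN genes stood in intestinal lymphatic cells of mice with the stromal deletion. In these 7 libraries Cyr61 and Ctgf passed the filter on low counts, and neither was called. Of 10639 genes tested, 0.0658% were called in either direction (7 genes, with 837 at an unadjusted p under 0.05). With 4 against 3 libraries the smallest two-sided exact p is 0.0571, so no exact test here can fall under 0.05.

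Ctgf was lower in each KO LEC library. The WT replicates 1 to 4 stood at 98.7, 292, 527 and 493 CPM. The KO replicates 1 to 3 stood at 39.8, 42.7 and 72.2 CPM. The groups did not overlap, and every KO library was below every WT library for 6.45% of the genes tested (686 genes). The means were 353 ± 198 CPM (SD, n = 4) and 51.6 ± 17.9 CPM (SD, n = 3). The log2 fold change of -2.69 ± 0.51 (SE) did not pass in edgeR (adjusted p = 0.0796), and exact permutation gave the lowest value open to it, p = 0.0571 (adjusted over all genes 0.770). WT replicate 1, which held the most stromal marker reads, was the lowest WT library. Without it the log2 fold change was -3.01 and passed (edgeR adjusted p = 0.0192). It also passed with DESeq2 (adjusted p = 3.67e-05), with a minimum of 1 read per gene (edgeR 0.00669), with a mean count of at least 10 (edgeR 0.0347) and with all 4 groups in 1 fit (edgeR 0.0477). Of the 7 fits that left out 1 library, 1 passed, and the edgeR adjusted p reached 0.307 in the others. Ctgf did not pass with RLE factors (edgeR adjusted p = 0.0866), without Rn45s (0.0786) or with the replicate block (0.180).

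Immediate early genes, which respond within minutes to stimuli including tissue dissociation, differed between the same libraries. Their 15 members summed to 4126 to 4648 CPM in WT LECs and 2075 to 2411 CPM in KO LECs, without overlap, and to 6936 to 13039 CPM in WT and 10172 to 15846 CPM in KO IntSCs, with overlap. Other marker sums separated the LEC genotypes without overlap as well. From WT to KO LECs, 7 blood endothelial genes went from 503 to 697 CPM down to 375 to 410 CPM (Esm1, Sox17 and Vwf had no read in KO), 9 stromal genes from 643 to 2236 CPM down to 320.2 to 539 CPM, and 6 leukocyte genes from 68.9 to 146 CPM down to 14.4 to 65.3 CPM (Cd3e and Cd79a had no read in either group). The 5 Paneth cell genes went from 0 to 0.740 CPM up to 11.8 to 62.0 CPM. The part of these gene groups in the Ctgf and Cyr61 values was not tested. Cyr61 itself stood at 110, 377, 556 and 421 CPM in WT LEC replicates 1 to 4 and at 343, 127 and 140 CPM in KO LEC replicates 1 to 3. The groups overlapped, with WT replicate 1 below all KO libraries, and the log2 estimate of -0.78 ± 0.48 (SE) did not pass (edgeR adjusted p = 0.847).

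Wisp1, Nov and Wisp2 were too low in LECs to be tested. Wisp2 had no read in any of the 7 LEC libraries, which allows up to 0.0764 CPM over the WT and 0.120 CPM over the KO LECs. Against 3 reads over the KO LECs, its level in KO IntSCs was at least 201-fold higher. Wisp1 had 0, 0, 2 and 2 reads in WT LEC replicates 1 to 4, and 11, 0 and 169 reads in KO LEC replicates 1 to 3, the last being 21.0 CPM. KO LEC replicate 3 thus reached the level of the lowest WT IntSC library for Wisp1, with a stromal marker sum of 539 CPM against at least 8004 CPM in the IntSCs. Nov had 63, 7, 0 and 0 reads in WT LECs and 0, 166 and 0 reads in KO LECs, so 17.1 CPM in KO replicate 2 stood alone.

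IntSCs and LECs were then set against each other for their genotype differences, by an interaction term over all 18 libraries in which a positive value means a larger KO minus WT difference in IntSCs than in LECs. Ctgf was the single CCN gene called, while 1.7% of the 14015 genes tested were called (238 genes). Its interaction was 5.36 ± 0.95 on the log2 scale (SE, edgeR adjusted p = 0.00750). The median of all genes stood at 0.24 and moved to 0.13 with RLE factors in place of TMM, and Ctgf lay 5.12 above the first and 5.11 above the second. It was called without each of the 18 libraries in turn, with adjusted p from 0.00217 to 0.0291 and values from 5.005 to 5.69. Cyr61 had a value of 2.19 ± 0.73 (SE, edgeR adjusted p = 0.139). Wisp1 had a value of -5.60 ± 1.48 (SE, edgeR adjusted p = 0.0521), which rests on KO LEC replicate 3 and was -2.30 without it, where it did not pass (adjusted p = 0.368). Nov had a value of 0.44 ± 2.92 (SE, edgeR adjusted p = 0.9999). Wisp2 gave no usable interaction because both LEC groups held no read. Whether IntSC and LEC libraries came from the same mice was not given in the sources used here, and this test treats them as independent.

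WT LECs and WT IntSCs were compared to see which CCN genes marked each cell type without the deletion. Here 22.6% of the 12203 genes tested were called in either direction (2763 genes). Wisp1 was called and was lower in LECs, Ctgf and Cyr61 were tested and not called, and Nov and Wisp2 were too low to be tested. Wisp1 stood at 20.7 to 36.6 CPM in the 6 IntSC libraries and at 0 to 0.200 CPM in the 4 LEC libraries, without overlap. The share of all genes without overlap between these groups was not computed. The exact permutation test gave Wisp1 its lowest possible value, p = 0.00952 (adjusted over all genes 0.0617). With this test 4601 of 16975 genes had an unadjusted p under 0.05. Its 1130 reads in IntSCs against 4 in LECs gave a ratio of 291 after scaling to library size, with a 95% counting interval of 113 to 1071. The log2 estimate was -8.00 ± 0.99 (SE) with an edgeR adjusted p of 2.42e-05, and Wisp1 was called without each of the 10 libraries in turn.

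Ctgf means were 353 ± 198 CPM (SD, n = 4) for LECs and 135 ± 85.3 CPM (SD, n = 6) for IntSCs. LEC replicates 2, 3 and 4 were above all IntSC libraries and LEC replicate 1 was within their range, and the log2 fold change of 1.39 ± 0.52 (SE) did not pass (edgeR adjusted p = 0.0698). It passed without LEC replicate 1 (edgeR adjusted p = 0.0223) or without IntSC replicate 4 (0.0307). These were 2 of the 10 fits that left out 1 library, and the edgeR adjusted p reached 0.221 in the others. Cyr61 had means of 366 ± 187 and 307 ± 155 CPM (SD, n = 4 and n = 6), and the log2 estimate of 0.26 ± 0.41 (SE) did not pass (edgeR adjusted p = 0.737).

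Ordered by mean level, Ctgf ran from KO LECs (51.6 CPM) through WT IntSCs (135 CPM) and WT LECs (353 CPM) to KO IntSCs (812 CPM), and each pair of neighbours in this order overlapped. Cyr61 ran from KO LECs (203 ± 121 CPM, SD, n = 3) through WT IntSCs and WT LECs to KO IntSCs in the same order, and its neighbours also overlapped. Wisp1 ran from WT LECs (0.0968 CPM) through KO LECs (7.50 ± 11.7 CPM, SD, n = 3) and WT IntSCs (29.8 ± 6.80 CPM, SD, n = 6) to KO IntSCs (39.9 ± 17.9 CPM, SD, n = 5), and each pair of neighbours overlapped. Nov means ran from 0.989 CPM in WT IntSCs through 1.71 CPM in WT LECs and 4.43 CPM in KO IntSCs to 5.71 CPM in KO LECs, with no pair apart. For Wisp2 the KO IntSCs stood apart from all other groups.

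Ctgf and Cyr61 were then compared within each library, as the number of Ctgf reads per Cyr61 read, a value that does not depend on library size. It was higher in each of the 5 KO IntSC libraries than in any WT IntSC library. The WT IntSC libraries ranged from 0.136 to 0.570, with a mean of 0.427 ± 0.155 (SD, n = 6). The KO IntSC libraries ranged from 0.769 to 1.34, with a mean of 1.02 ± 0.220 (SD, n = 5). On the log2 scale with 0.5 reads added, the difference was 1.37 (two-sided exact permutation test, p = 0.00433, the lowest value possible, and 0.0130 adjusted over the 3 comparisons of this ratio). Any complete separation of the groups gives this lowest p. The share of other gene pairs whose ratio separates the groups was not computed for any of the 3 comparisons. The ratio was chosen with earlier results of these data known. KO IntSC replicate 2, low in both genes, had a ratio inside the KO range.

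In LECs the order of genotypes was the opposite. The 4 WT LEC libraries ranged from 0.774 to 1.17, with a mean of 0.949 ± 0.166 (SD, n = 4), and the 3 KO LEC libraries from 0.116 to 0.517, with a mean of 0.323 ± 0.201 (SD, n = 3). The groups did not overlap, and the log2 difference was -1.78 (exact permutation test, p = 0.0571, the lowest value possible, so this design cannot pass). WT LEC replicate 1, the lowest WT library for both genes, had a ratio of 0.901. WT LECs were above all WT IntSCs, with a log2 difference of 1.27 (exact permutation test, p = 0.00952, the lowest value possible, adjusted 0.0143). Leaving out each library in turn kept the difference between 1.06 and 1.48 in IntSCs, between -2.24 and -1.17 in LECs and between 0.96 and 1.37 between the WT groups.

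**Figure D3:**
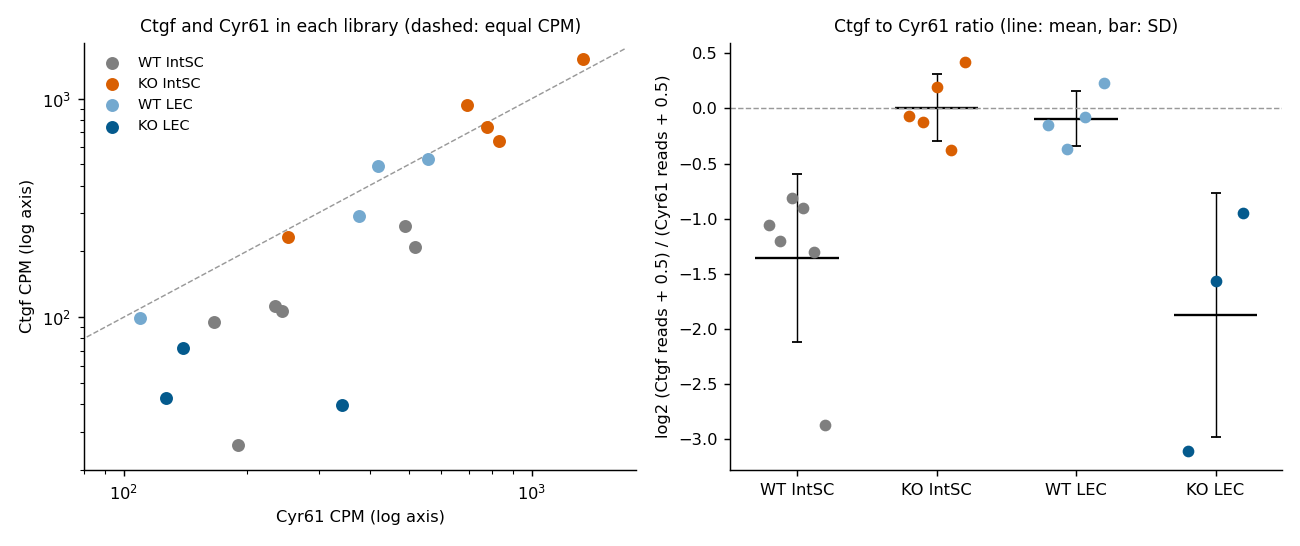
Left, Ctgf against Cyr61 CPM in each of the 18 libraries (both axes logarithmic, dashed line at equal CPM). Right, the log2 ratio of Ctgf to Cyr61 reads per library by group (line at the mean, bar of 1 SD on each side), where KO IntSCs and WT LECs lie near 0 and WT IntSCs and KO LECs lie below them without overlap within a cell type.

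Around their group means, Cyr61 and Ctgf varied together. The deviations of log2(CPM + 1) from the group mean had Pearson's r = 0.780 and Spearman's rho = 0.686 over the 18 libraries, and r = 0.622 without the 2 libraries farthest out in Cyr61. Over the 11 IntSC libraries r was 0.845 (0.749 without the farthest 2), whereas over the 7 LEC libraries it was 0.697 and fell to -0.206 without the farthest 2. Wisp1 deviations in IntSCs had r = 0.135 with Cyr61 and r = 0.0610 with Ctgf, which became -0.490 and -0.258 without the farthest 2. Values of a library share its depth and its sorted cells, so these correlations are descriptions.

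The genes most like each member were the 3 with the highest Pearson's r of log2(CPM + 1) over the 18 libraries, among 10730 genes with a mean of at least 5 CPM over those libraries. For Wisp2 they were Pex5l (r = 0.990), Itga8 (0.908), an integrin subunit of mesenchymal cells, and Slc1a6 (0.902), a glutamate transporter. Pex5l had means of 0.0577 CPM in WT and 40.2 CPM in KO IntSCs. Spearman's rho was lower for these 3 genes, from 0.746 to 0.818, and Wisp2 was near 0 outside KO IntSCs. For Wisp1 the 3 genes were Adamtsl3, Lcmt2 and Spats2, with r from 0.935 to 0.940 and rho from 0.640 to 0.730. Their means were lower in KO than in WT IntSCs (Lcmt2 19.4 and 31.9 CPM), while that of Wisp1 was higher (39.9 and 29.8 CPM). For Ctgf the 3 genes were Adcy6 (0.860), an adenylyl cyclase, Brd2 (0.793) and F2r (0.787), the thrombin receptor PAR1. For Cyr61 they were Bloc1s3 (0.837), Htra2 (0.831) and Loxl3 (0.822), a lysyl oxidase-like enzyme. For Nov the highest r was 0.677, with Mrps22, followed by Tnfaip8 (0.664) and Plrg1 (0.658). An r over all 18 libraries holds differences between the cell types and genotypes as well as those within a group.

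The CCN genes were set beside 5 lists of related genes. Of 22 YAP/TAZ targets outside the family, 21 were tested in IntSCs, 2 were called higher and none lower, beside 106 higher and 77 lower of all 12421 genes, and their median log2 fold change was 0.51 against 0.00 over all genes tested. Amotl2, an angiomotin that binds YAP, went from 45.5 ± 18.02 CPM (SD, n = 6) to 193 ± 29.7 CPM (SD, n = 5, log2 fold change 2.09 ± 0.24 SE, edgeR adjusted p = 8.98e-05), and Crim1, a membrane protein that binds bone morphogenetic proteins, from 102 ± 27.3 to 294 ± 47.6 CPM (1.52 ± 0.21 SE, edgeR adjusted p = 2.84e-04). In LECs 16 targets were tested and none was called (edgeR and adjusted p, as for all lists), with a median of -0.30 against -0.03 over all genes. In the interaction 1 of 22 was called (1.7% of all genes were), Crim1 (1.73 ± 0.39 SE, edgeR adjusted p = 0.0201).

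Among 17 other matricellular proteins, 14 were tested in IntSCs, 3 were called higher and 2 lower, with a median of 0.06 (the counts over all genes are those given for the YAP/TAZ targets). Fbln5, which organises elastic fibres, rose (2.20 ± 0.27 SE, edgeR adjusted p = 1.22e-04), as did Thbs1, a thrombospondin that activates latent TGF-beta (1.65 ± 0.25 SE, edgeR adjusted p = 6.97e-04), and Smoc2 (0.90 ± 0.20 SE, edgeR adjusted p = 0.0256), the last named after its value was seen. Tnc, tenascin C, fell by 0.99 ± 0.19 on the log2 scale (SE, edgeR adjusted p = 0.00859) and Fbln1 fell by 1.03 ± 0.23 (SE, edgeR adjusted p = 0.0229). In LECs 13 were tested and edgeR called none, with a median of -0.59. Between the WT cell types 9 of 14 were called lower in LECs and 1 higher, Thbs1 (1.95 ± 0.30 SE, edgeR adjusted p = 2.26e-04), beside 1503 lower and 1260 higher of all 12203 genes.

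Of 18 CCN receptors and co-receptors, 13 were tested in IntSCs and 12 in LECs, and edgeR called none in either (medians 0.13 and 0.03). Between the WT cell types 6 of 14 were called, beside 22.6% of all genes tested, and they are named after their values were seen. Notch1 and the integrin subunit Itga6 were higher in LECs, by 3.24 ± 0.42 and 2.49 ± 0.43 on the log2 scale (SE). Lrp1, an endocytic receptor that clears CCN proteins, fell by 4.90 ± 0.44 on the log2 scale from IntSCs to LECs (SE, edgeR adjusted p = 1.36e-06), and Sdc4, Itgb5 and Fgfr2 were lower as well. Of 16 Hippo effectors, 15 were tested in IntSCs and 14 in LECs, and edgeR called none in either (medians 0.11 and 0.05). Of 15 immediate early genes, all tested in IntSCs, 14 had positive estimates and none was called (median 0.51), and in LECs 10 of 13 had negative estimates and Junb was called lower (-1.59 ± 0.24 SE, edgeR adjusted p = 0.0259). In the interaction 4 of 15 immediate early genes were called, all positive, beside 1.7% of all genes, of which 199 of 238 were positive.

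**Figure D4:**
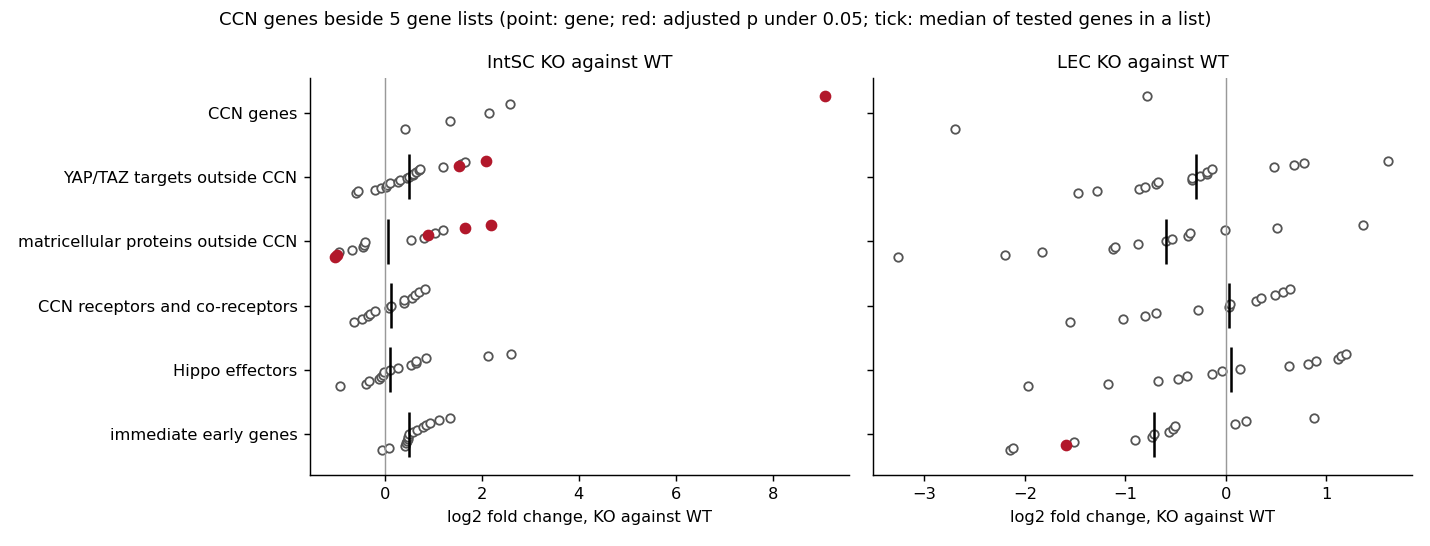
edgeR log2 fold changes, KO against WT (horizontal axis), of the CCN genes and of 5 gene lists in IntSCs and LECs, with each point a tested gene, red where the adjusted p is under 0.05, and a vertical tick at the median of each list. YAP/TAZ targets have a median of 0.51 in IntSCs and -0.30 in LECs, and Wisp2 lies far to the right of every other gene shown in IntSCs.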

How the data were processed

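Reads were 3′ tags from QuantSeq libraries. The authors deposited raw counts, whole numbers of reads per gene symbol, in 1 table per library with 23282 rows, and counts of 35 symbols on more than 1 row were summed. The submitters' processing notes name Bowtie2, edgeR and mm10, while the study's methods name TopHat and Cufflinks. The counting program, its strand setting and the annotation are not given in the sources used here.

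Tests used edgeR 4.0.16 under R 4.3.3 (TMM factors, filterByExpr by group, robust quasi-likelihood fit, Benjamini-Hochberg adjustment over all genes tested, threshold 0.05), with the groups compared in each fit and all 4 groups for the interaction. Standard errors were derived from the F statistic. CPM are counts scaled to library size with TMM factors over the 18 libraries. Exact permutation tests (two-sided) went through every split of the libraries with numpy 2.4.6 and used log2(CPM + 1). Those of the Ctgf to Cyr61 ratio used log2 of the reads with 0.5 added. The test per gene was checked against scipy 1.17.1 on simulated counts, and scipy also gave the exact binomial intervals. Alternatives were DESeq2 1.42.0, RLE factors, at least 1 read, a mean count of at least 10, removal of Rn45s, the replicate number as a block, all 4 groups in 1 fit, other pseudocounts and each library left out. The procedure was tested on simulated data. Intervals and floors cover counting error only, since reads copied by PCR and lacking molecular identifiers need not be separate molecules.

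The members, gene lists and tests were chosen with earlier results of these data known. Genes named were the CCN genes, the 3 genes most like each member (members with a mean of at least 5 CPM in some group, and other genes with a mean of at least 5 CPM over the 18 libraries), and from each list at most 4 genes past the threshold in IntSCs or LECs with the smallest p, besides Lats1, Lats2 and Pdgfrb. RefSeq gave the promoter of Cyr61.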

Additional observations from a re-analysis of the deposited data

Results flagged for a closer look

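The Ctgf difference between genotypes was unequal in the 2 cell types by the interaction test, with a value of 5.36 ± 0.95 on the log2 scale (SE, edgeR adjusted p = 0.00750). All 3 KO LEC libraries were below all 4 WT LEC libraries, as for 6.45% of the genes tested in LECs (686 genes). In IntSCs 4 of 5 KO libraries were above all 6 WT libraries, and the share of all genes with that arrangement was not computed. The differences within each cell type, 2.59 in IntSCs and -2.69 in LECs, did not pass on their own in edgeR.

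Of 15 sets of values examined, 3 held a library far from the others by a rule on gaps. For normally distributed values chance gives about 1 in 20, or 0.75. Nov, with most values near 0, is not so distributed, so the 3 cannot be weighed against 0.75. WT IntSC replicate 6 had a Ctgf to Cyr61 log2 ratio of -2.87 against -1.30 to -0.81 in the other 5 libraries, a gap of 0.763 of the whole range. The same library had the highest Nov of the WT IntSCs, 4.43 CPM against at most 1.38 CPM (gap 0.689). WT LEC replicate 1 had a Nov level of 5.99 CPM against at most 0.864 CPM in the other 3 (gap 0.856). Without WT IntSC replicate 6 the difference in the ratio between KO and WT IntSCs was 1.06 on the log2 scale, and the groups still did not overlap (exact permutation test, p = 0.00794, the lowest possible for 5 against 5 libraries).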

How the results depend on the processing

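The number of genes called in IntSCs, 183, was 376 with DESeq2 and 27 with all 4 groups in 1 fit, and 99 to 186 without single libraries, with 99 to 121 without WT replicate 1 or KO replicates 1, 2, 3 or 5. In LECs, 7 genes became 309 with DESeq2, 32 with at least 1 read, 20 with a mean count of at least 10 and 538 with all 4 groups in 1 fit, and 0 to 16 without single libraries, of which only the fit without WT replicate 1 stayed within 1.5 times. The 238 interaction genes became 1054 with DESeq2 and 161 to 461 without single libraries (461 without KO LEC replicate 2 and 379 without KO LEC replicate 3). The number of CCN genes called in IntSCs, 1, was 2 with DESeq2 and 1 to 3 without single libraries. In LECs, 0 became 1 with DESeq2, with at least 1 read and with a mean count of at least 10, 2 with all 4 groups in 1 fit (Ctgf and Wisp1), and 0 to 1 without single libraries. Between the WT cell types, 1 became 2 with DESeq2 and 1 to 2 without single libraries. In the interaction, 1 became 4 with DESeq2 (Ctgf, Wisp1, Cyr61 with an adjusted p of 0.0331, and Wisp2, whose DESeq2 value rests on LEC groups without a read), 2 with RLE factors, 2 with at least 1 read and 2 without Rn45s (Wisp1 in the last 3), and 1 to 2 without single libraries. The cause of these changes was not tested.

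Same-numbered WT and KO libraries did not deviate together (mean correlation 0.00980 in IntSCs and -0.00367 in LECs). Between the WT cell types, 4 of 4 pairs correlated best with their own number. These correlations were weak but all positive (0.0221 to 0.0382, mean 0.0276, against -0.00549 for other numbers). Between the KO cell types 1 of 3 pairs did so (mean 0.000523). Whether same-numbered WT libraries share a mouse or a batch was not given and not tested. The main tests did not take the numbers as pairs. With the replicate block, 122 genes were called in IntSCs, 3 in LECs, 1596 between the WT cell types and 16 in the interaction, and 2 CCN genes were called in IntSCs, Wisp2 and Ctgf (edgeR adjusted p = 0.00570). The block left the number of CCN genes called at 0 in LECs and at 1 in the WT comparison and in the interaction.

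Directions reversed for 2 genes that were not called. Cyr61 between the WT cell types was -0.0194 without WT LEC replicate 3, in a range from -0.0194 to 0.57 without single libraries. The Nov interaction was -2.10 without WT LEC replicate 1, -0.14 without KO LEC replicate 1, -0.52 without KO IntSC replicate 2 and -0.15 without KO LEC replicate 3, in a range from -2.10 to 8.89. The Ctgf to Cyr61 ratio kept its direction and its side of the threshold with 5 reads added. Counts near 0 limit Wisp1 and Nov in LECs and Wisp2 outside KO IntSCs.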
